A study of Mus musculus with 6 samples.

Results

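The 9 genes of the microtubule subunits and of the small tubulin-binding protein stathmin described in DP (CD4+CD8+ double positive) thymocytes were the alpha-tubulin genes *Tuba1a*, *Tuba1b*, *Tuba1c* and *Tuba4a*, the beta-tubulin genes *Tubb2a*, *Tubb5* and *Tubb6*, the gamma-tubulin gene *Tubg1* and the stathmin gene *Stmn1*. They were taken by gene symbol and make up 9 of the 23183 genes with a deposited value. mRNA was sequenced from sorted DP thymocytes of C57BL/6 mice at 6 weeks of age, with 3 libraries of WT (*Nsrp1* f/f) mice and 3 libraries of NSrp70-cKO (*Nsrp1* f/f CD4Cre) mice. The comparison asks how gene expression differs where the nuclear speckle protein NSrp70 is deleted. Both groups carry the floxed *Nsrp1* alleles, and the cKO mice in addition carry a Cre transgene driven by *Cd4* regulatory sequences, so that deletion is confined to cells in which these are or have been active. The labels do not say whether the libraries of a group came from separate mice or from pools, and the p-values therefore measure the spread between these libraries, which may be technical.

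Microtubules are hollow polymers of alpha/beta-tubulin dimers. They grow from gamma-tubulin ring complexes, form the mitotic spindle of dividing cells and move to the contact site when a thymocyte meets a presenting cell. Stathmin binds free dimers and promotes shrinkage of the polymer, and it is abundant in cycling cells. Cells hold their tubulin mRNA in balance with the free dimer: when free dimer is high, the factor TTC5 recognises the first residues of alpha- and beta-tubulin as they leave the ribosome, and the adaptor SCAPER and the CCR4-NOT complex then degrade the mRNA being translated.

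The first 24 coding bases of 8 genes are shown because the first 4 codons, in capitals, encode the peptide that TTC5 reads. They were taken from GENCODE transcripts on GRCm38, 5′ to 3′ on the coding strand. *Tubb6* is not shown.
Tuba1a: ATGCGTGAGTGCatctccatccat
Tuba1b: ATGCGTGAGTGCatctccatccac
Tuba1c: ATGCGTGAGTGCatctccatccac
Tuba4a: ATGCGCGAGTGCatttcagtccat
Tubb2a: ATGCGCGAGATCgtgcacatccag
Tubb5: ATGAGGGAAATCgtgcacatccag
Tubg1: ATGCCGAGAGAAatcatcacccta
Stmn1: ATGGCATCTTCTgatattcaggtg

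The capitals of *Tuba1a*, *Tuba1b* and *Tuba1c* are identical. Those of *Tubg1* and *Stmn1*, whose products are no part of the dimer, match neither the alpha- nor the beta-tubulin starts codon for codon. *Tuba1b* (15:98931425-98934565, minus strand) and *Tuba1a* (15:98949837-98953703, minus strand) lie close together on chromosome 15, with *Tuba1c* (15:99029891-99038110, plus strand) close by. The coding sequences of *Tuba1a* and *Tuba1b* were identical at 98.3% of aligned bases, those of *Tuba1b* and *Tuba1c* at 97.9%, and those of *Tuba1a* and *Tuba4a* at 84.7%. *Tubb2a* was identical to its near-copy *Tubb2b*, which is not one of the 9 genes, at 96.5% of aligned bases.

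This likeness bears on the values, because a read that lies in a shared stretch can be credited to the wrong gene. The last 60 coding bases of *Tubb2a* and *Tubb2b* are shown for this reason, with the bases at which the pair differs in capitals. Those of *Tubb2a* lie at chr13:34074468-34074527 and those of *Tubb2b* at chr13:34127471-34127530, each in the last coding exon on the minus strand of GRCm38.
Tubb2a: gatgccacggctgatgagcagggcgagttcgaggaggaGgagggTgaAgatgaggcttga
Tubb2b: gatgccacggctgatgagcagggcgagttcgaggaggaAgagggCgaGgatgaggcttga

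The pair differed at 3 of these 60 bases. Over whole transcripts, 69.4% of the windows of 1 read length of *Tuba1b* occurred unchanged in another gene's transcript, 65% of those of *Tuba1a*, 53.3% of those of *Tuba1c*, 36.7% of those of *Tubb2a* and 25.9% of those of *Stmn1*, the last all shared with the pseudogene *Gm11223*. For *Tubg1* the share was 4%, and for *Tuba4a*, *Tubb5* and *Tubb6* it was 0. How the reads of *Tuba1a*, *Tuba1b* and *Tuba1c* were divided among the 3 genes is therefore uncertain. Their sum is less so, as far as reads were exchanged only within the 3.

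The libraries held an estimated 20.7 to 20.8 M fragments (M, mega) in WT and 13.1 to 20.5 M in cKO. The WT libraries differed from each other little more than counting noise (chi-square per gene 1.49 to 1.58, where 1 is noise alone), the cKO libraries much more (28.04 to 65.8). The targeted gene, listed under its older symbol *Ccdc55*, had FPKM values (fragments per kilobase of transcript and mega of mapped fragments) of 20.2, 20.7 and 21.1 in WT and 17.7, 15.8 and 15.0 in cKO (log2 fold change -0.34, SE 0.077, limma adjusted p = 0.00675). The cKO mean was thus 0.782 times the WT mean, and the call was lost with WT counted as 1 sample (adjusted p = 0.188). *Xist*, which is expressed from the inactive X chromosome of females, stood at 69.8 to 72.0 in WT and 4.07 to 5.44 in cKO, and the Y-linked *Ddx3y* was listed at 0 in WT and at 26.2 to 35.0 in cKO, so that sex and genotype cannot be told apart in any comparison here. FPKM values summed to 521296 to 531517 in WT and to 701396 to 850548 in cKO, which makes the scaling matter for every gene below. The DP markers were present in all libraries, with *Cd8b1* at 1240 to 1275 FPKM in WT and 1809 to 2603 in cKO.

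Of the 9 genes, 8 passed the filter on low values (3 or more libraries at 1 FPKM or above), and 5 of these were higher in cKO at a limma adjusted p under 0.05: *Tuba1a*, *Tuba1b*, *Tuba1c*, *Tubb5* and *Stmn1*. Among all 10326 genes tested, 35.8% were called higher and 29.8% lower, 65.5% in all. None of the 8 was called lower by limma, and none of the other 3 had an unadjusted p under 0.05 (the smallest was 0.499). In the same 5 genes every cKO library lay above every WT library, as was so for 39.2% of all tested genes, and for 72.5% in either direction. The median log2 fold change of the 8 genes was 0.55, beside 0.039 over all genes. All fold changes are on the scale of log2(FPKM + 1), cKO over WT, after scaling each library by a size factor. In these bulk samples, more cells of a type and more RNA per cell cannot be told apart.

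**Figure D1:**
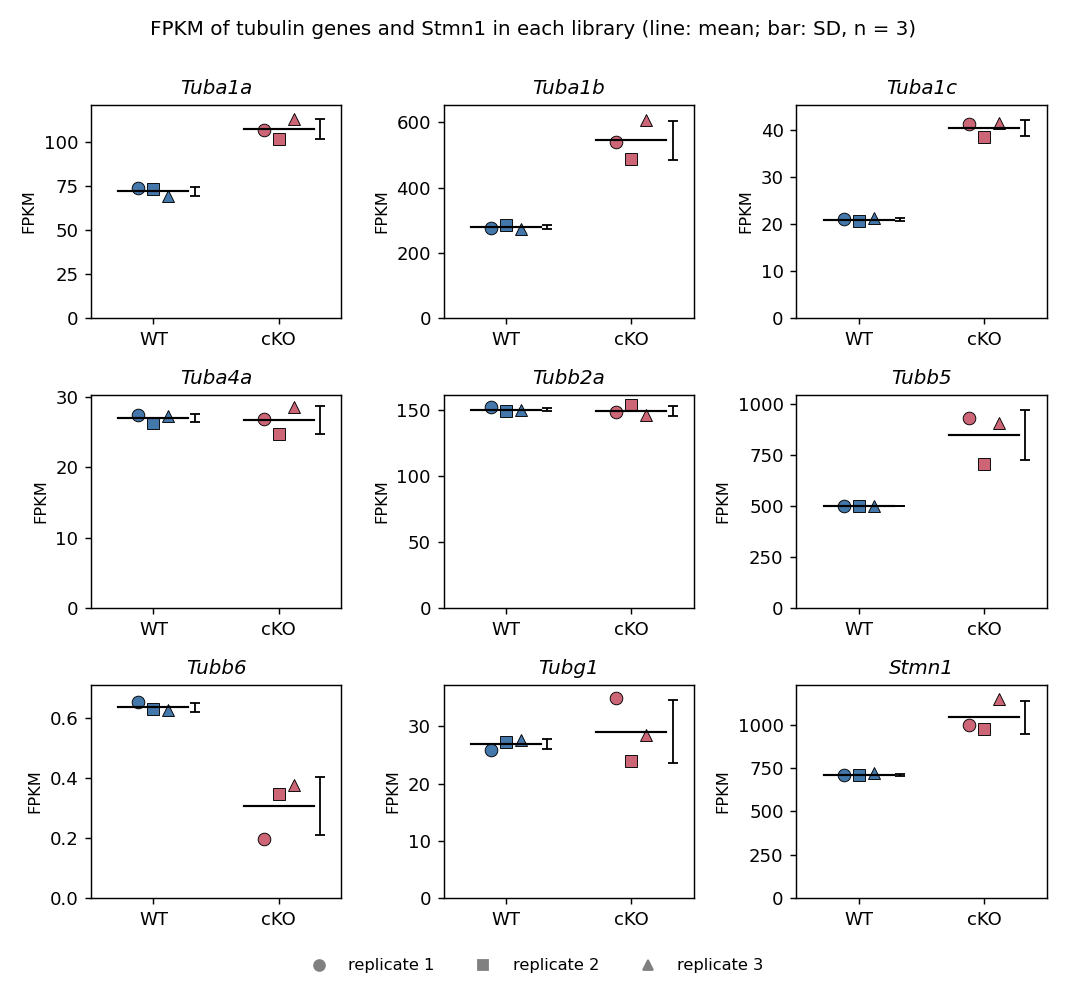
FPKM (y axis, from 0) of each of the 9 genes in the 3 WT and 3 cKO libraries, with 1 symbol per replicate number, a line at the mean and a bar of 1 SD. The cKO libraries sit above all WT libraries for Tuba1a, Tuba1b, Tuba1c, Tubb5 and Stmn1, overlap them for Tuba4a, Tubb2a and Tubg1, and sit below them for Tubb6.

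*Tuba1b*, which encodes the alpha-tubulin made by most dividing cells, was the most abundant alpha-tubulin transcript and had the largest log2 fold change of the 8 genes tested. *Tuba1c* was ahead of it with quantile normalization (0.84 against 0.41) and with the GC and length correction (1.14 against 1.04). It was also slightly ahead without cKO replicate 3 (0.894 against 0.882). The FPKM of *Tuba1b* was 276, 284 and 273 in the WT libraries and 541, 487 and 606 in the cKO libraries. The cKO libraries did not overlap the WT libraries, and their mean of 545 ± 59.6 (SD, n = 3) was 1.96 times the WT mean of 278 ± 5.91. The log2 fold change was 0.96 with an SE of 0.10 (limma adjusted p = 0.000358), and it stayed positive and past the threshold in all 16 alternative settings tried.

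*Tuba1c*, which lies close to *Tuba1a* and *Tuba1b*, rose by nearly the same factor from a far lower level. Its FPKM was 21.0, 20.6 and 21.2 in WT and 41.3, 38.4 and 41.5 in cKO, a mean of 20.9 ± 0.334 against 40.4 ± 1.71 (SD, n = 3). The groups were well apart and the cKO libraries lay close together. The log2 fold change of 0.91 (SE 0.063, limma adjusted p = 0.000111) had the smallest adjusted p of the 8 genes and, like that of *Tuba1b*, held in all 16 alternative settings. None of these settings changes the division of shared reads, and 796 of the 1882 windows of *Tuba1c* also occurred in *Tuba1b*. The part of *Tuba1b* reads in the values of *Tuba1c* was not tested.

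*Tuba1a*, the alpha-tubulin best known from developing neurons, rose less. Its FPKM was 73.8, 73.2 and 69.2 in WT and 107, 102 and 113 in cKO. All cKO libraries were higher, with a mean of 107 ± 5.67 against 72.1 ± 2.48 (SD, n = 3) and a log2 fold change of 0.57 (SE 0.071, limma adjusted p = 0.000606). *Tuba1a*, *Tuba1b* and *Tuba1c* have transcripts of similar lengths (1743 to 1982 bases), so that the division of shared reads among these 3 genes moves their sum little. Each also shared windows with genes outside the 3, with 11 partner genes in all for *Tuba1a* and *Tuba1b* and 10 for *Tuba1c*. Reads exchanged with those outside genes are not cancelled in the sum. The sum was 371, 378 and 363 FPKM in WT and 690, 628 and 761 in cKO. Its cKO mean of 693 ± 66.7 was 1.87 times the WT mean of 371 ± 7.40 (SD, n = 3), and the groups did not overlap (exact two-sided permutation test, p = 0.1, the smallest value that 3 against 3 libraries can give).

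*Tuba4a* stood apart from the other alpha-tubulin genes. It encodes an alpha-tubulin known from muscle, testis and platelets, and no window of its transcript was shared with another gene. Its FPKM was 27.5, 26.4 and 27.2 in WT and 26.9, 24.7 and 28.6 in cKO. The groups overlapped, and the log2 fold change was -0.019 (SE 0.074, limma adjusted p = 0.835).

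*Tubb5*, the main beta-tubulin of dividing cells and of lymphocytes, was the most abundant tubulin transcript in both groups. Its FPKM was 500, 501 and 498 in WT and 930, 706 and 905 in cKO. The WT libraries were nearly equal, with an SD of 0.257% of their mean where counting alone gives 0.628%, whereas cKO replicate 2 lay well below the other cKO libraries but still above all WT libraries. The cKO mean was 847 ± 123 against 500 ± 1.28 (SD, n = 3), a log2 fold change of 0.75 (SE 0.13, limma adjusted p = 0.00213). Without cKO replicate 2 it was 0.88.

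*Tubb2a*, a beta-tubulin best known from neurons, did not share in this. Its FPKM was 152, 149 and 150 in WT and 148, 153 and 146 in cKO. The groups overlapped and all 6 libraries lay within a narrow range, with a log2 fold change of -0.011 (SE 0.063, limma adjusted p = 0.883). Its near-copy *Tubb2b* had 123, 123 and 122 FPKM in WT and 162, 179 and 173 in cKO, a log2 fold change of 0.47 (SE 0.067, limma adjusted p = 0.000933). Added together, *Tubb2a* and *Tubb2b* reached 273 ± 1.84 FPKM in WT and 321 ± 10.98 in cKO (SD, n = 3), 1.17 times as much (exact two-sided permutation p = 0.1, the smallest possible). Their transcripts differ in length (1610 and 2182 bases), so that this sum still depends on how shared reads were divided.

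*Tubb6*, a beta-tubulin of many non-lymphoid tissues, was close to the detection limit and was the 1 gene of the 9 that failed the filter. Its FPKM was 0.653, 0.628 and 0.626 in WT and 0.198, 0.347 and 0.375 in cKO. These values correspond to an estimated 20 to 21 fragments per WT library and 4 to 11 per cKO library. All cKO libraries were below all WT libraries, and when genes were tested with no filter the log2 fold change was -0.33 with a limma adjusted p of 0.00625, a size that the added 1 FPKM holds down.

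*Tubg1* encodes gamma-tubulin, which nucleates new microtubules. Its FPKM was 25.9, 27.2 and 27.6 in WT and 34.9, 23.9 and 28.5 in cKO. cKO replicate 1 was the highest and cKO replicate 2 the lowest of all 6 libraries, and the groups overlapped (log2 fold change 0.094, SE 0.13, limma adjusted p = 0.553). The cKO spread of 19.0% of the mean was well above the 3.60% that counting gives at this depth.

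*Stmn1* was the most abundant of the 9 transcripts in every library. Its FPKM was 710, 708 and 719 in WT and 1000, 977 and 1149 in cKO. No cKO library overlapped the WT range, and the mean of 1042 ± 93.3 was 1.46 times the WT mean of 712 ± 5.90 (SD, n = 3), a log2 fold change of 0.54 (SE 0.11, limma adjusted p = 0.00357). The direction of this difference turned under 2 other scalings, to -0.018 where all libraries were given the same FPKM total (limma adjusted p = 0.835) and to -0.15 after quantile normalization (adjusted p = 0.0618), and correcting for GC and length left 0.072 (adjusted p = 0.441).

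Giving all libraries the same FPKM total moved the median log2 fold change of all genes to -0.454, with 8.74% of all genes called higher and 59.9% lower, and the 8 genes moved with it. *Tuba1b* (0.40, limma adjusted p = 0.00116) and *Tuba1c* (0.37, adjusted p = 0.00353) were still called higher, *Tubb5* (0.19, adjusted p = 0.068) and *Tuba1a* (0.011, adjusted p = 0.897) were not, and *Tuba4a* (-0.56), *Tubb2a* (-0.57) and *Tubg1* (-0.45) were called lower. Relative to that median, *Tuba1b* lay 0.86 and *Tuba1c* 0.83 above it, *Tubb5* 0.64, *Tuba1a* 0.47, *Stmn1* 0.44 and *Tubg1* 0.0055 above it, with *Tuba4a* at -0.11 and *Tubb2a* at -0.12. Quantile normalization, under which 33.6% of all genes were called higher and 29.4% lower, kept the calls of *Tuba1a* (0.28), *Tuba1b* (0.41) and *Tuba1c* (0.84), ended that of *Tubb5* (0.033, limma adjusted p = 0.781) and called *Tubb2a* lower (-0.45, adjusted p = 0.00192).

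Because the WT libraries were nearly as alike as repeat draws from 1 library, the test was also made with WT counted as 1 sample. The log2 fold changes hardly moved, and *Tuba1b* (limma adjusted p = 0.0459) and *Tuba1c* (adjusted p = 0.0299) remained past the threshold. *Tuba1a* (adjusted p = 0.0635), *Tubb5* (adjusted p = 0.104) and *Stmn1* (adjusted p = 0.191) did not. In this setting 8.33% of all genes were called higher and 8.8% lower, 17.1% in either direction.

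**Figure D2:**
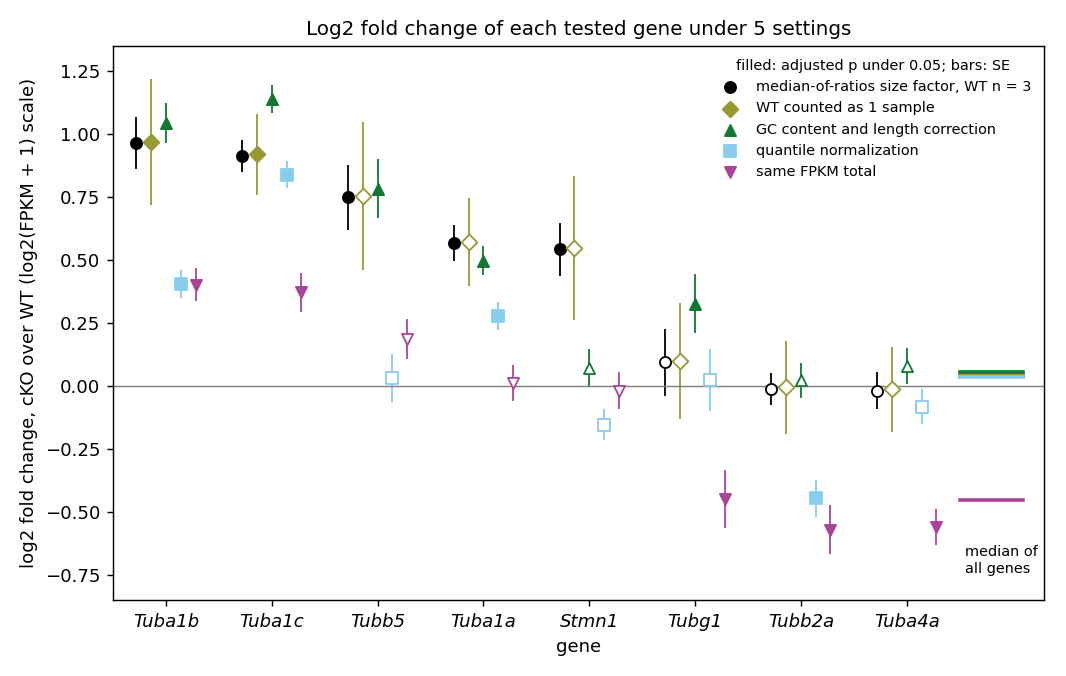
Log2 fold change (y axis, cKO over WT, log2(FPKM + 1) scale) of the 8 tested genes under 5 settings, with bars of 1 SE, filled symbols where the limma adjusted p was under 0.05, and short lines at the right for the median of all tested genes. Tuba1b and Tuba1c are filled and above 0 in all 5 settings, while Stmn1 falls from 0.54 to -0.15 with quantile normalization.

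Ranked by FPKM, which is per length and so allows levels of different genes to be set side by side, the order in WT was *Stmn1*, *Tubb5*, *Tuba1b*, *Tubb2a*, *Tuba1a*, *Tuba4a*, *Tubg1*, *Tuba1c* and *Tubb6*. All neighbours in this order were apart in all libraries except *Tuba4a* and *Tubg1*, whose ranges overlapped. In cKO the first 5 ranks were unchanged, *Tuba1c* moved from the eighth to the sixth place, and *Tubg1* and *Tuba4a* again overlapped.

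The make-up of each tubulin class was compared as the share of each gene in the summed FPKM of the class. Scaling a library by a single factor cannot change this measure. The shares of *Tuba1a*, *Tuba1b*, *Tuba1c* and *Tubb2a* still depend on how shared reads were divided, and other divisions were not tested. A total of 11 shares and ratios were tested, each with an exact two-sided permutation test over libraries, whose smallest possible p is 0.1 and whose smallest adjusted p here was 0.11, so that none could pass a threshold of 0.05. *Tuba1b* supplied 69.3%, 70.3% and 69.9% of the alpha-tubulin sum in WT and 75.6%, 74.7% and 76.8% in cKO. Its share was higher in all cKO libraries, by 5.85 percentage points on average (exact permutation p = 0.1).

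The share of *Tuba4a* was lower in all cKO libraries. It was 6.89%, 6.52% and 6.97% in WT and 3.76%, 3.78% and 3.62% in cKO. That of *Tuba1a* went from 18.1% ± 0.398 to 15.0% ± 0.642 (SD, n = 3), also with no overlap. The share of *Tuba1c* was 5.26% ± 0.175 in WT and 5.63% ± 0.336 in cKO, with overlapping groups (exact permutation p = 0.3).

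Among the beta-tubulin genes, *Tubb5* supplied 76.6%, 77.0% and 76.8% of the sum in WT and 86.2%, 82.1% and 86.1% in cKO. The share of *Tubb2a* was 23.1% ± 0.175 in WT and 15.2% ± 2.32 in cKO (SD, n = 3), and the groups did not overlap for either gene. With the other beta-tubulin genes added to the sum, the share of *Tubb5* was 53.6% in WT and 59.4% in cKO, again with no overlap.

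**Figure D3:**
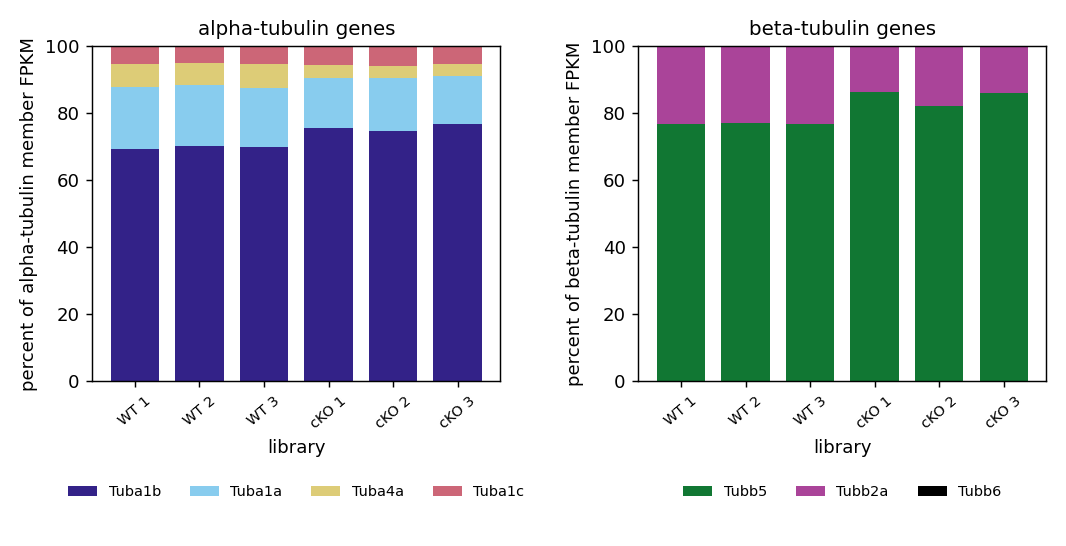
Percent of the summed FPKM of the alpha-tubulin genes (left) and beta-tubulin genes (right) among the 9 that each gene supplied, with 1 stacked bar per library; Tubb6 is too low to be seen. The Tuba1b segment covers 69.3% to 70.3% in WT and 74.7% to 76.8% in cKO, and the Tubb5 segment 76.6% to 77.0% in WT and 82.1% to 86.2% in cKO.

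In sum the 4 alpha-tubulin genes reached 398 ± 6.98 FPKM in WT and 720 ± 68.7 in cKO, and the 3 beta-tubulin genes 651 ± 1.89 and 997 ± 119 (SD, n = 3). The alpha sum was 1.81 times as high in cKO and the beta sum 1.53 times. The log2 ratio of beta to alpha was 0.71, 0.69 and 0.73 in WT and 0.59, 0.40 and 0.41 in cKO, lower in all cKO libraries (exact permutation p = 0.1). *Stmn1* kept less than pace with the dimer genes: its log2 ratio to alpha plus beta was -0.56 ± 0.023 in WT and -0.72 ± 0.11 in cKO (SD, n = 3), with no overlap. Against all genes of both classes the means were -0.90 in WT and -1.04 in cKO, again with no overlap.

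The genes whose log2(FPKM + 1) values ran most like those of the 2 most abundant members over the 6 libraries were *Hadhb* (Pearson r 0.9995), *Arl6ip1* (0.9994) and *Mrpl18* (0.9993) for *Stmn1*, and *Cct5* (0.9999), *Eif3l* (0.9997) and *Kars* (0.9996) for *Tubb5*. *Cct5* encodes a subunit of the chaperonin that folds tubulin, and its FPKM was 160, 163 and 161 in WT and 364, 256 and 354 in cKO. These correlations mostly restate the difference between the groups, since 376 genes had an r above 0.99 with *Stmn1* and 450 with *Tubb5*.

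RefSeq promoter windows of 300 bases (250 before and 50 after the start, GRCm38.p6) were found for 6 of the 9 genes. The letters CCAAT, searched on both strands, occurred in those of *Tuba1a* (1 match), *Tuba1c* (1) and *Tubb5* (2), and in 37.4% of all promoter windows. They did not occur in those of *Tuba1b*, *Tuba4a* and *Tubb2a*. TATAAA occurred in that of *Tubb2a* alone among the 6 (13.6% of all windows), and neither TTTGAA (17.9%) nor TTTGGCGC (0.514%) occurred in any. The upstream bases of *Tubb5*, the tubulin gene with the highest level, are shown with both CCAAT matches in capitals (chr17:35838307-35838551, minus strand).
Tubb5 promoter: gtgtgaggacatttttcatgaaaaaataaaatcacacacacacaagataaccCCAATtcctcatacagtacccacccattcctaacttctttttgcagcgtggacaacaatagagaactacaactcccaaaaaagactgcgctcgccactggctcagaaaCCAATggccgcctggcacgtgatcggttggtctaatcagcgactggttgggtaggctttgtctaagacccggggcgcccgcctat

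The other genes of the pathway were taken from fixed lists and are given as counts of genes called by limma at an adjusted p under 0.05, to be read against the 35.8% higher and 29.8% lower among all genes. Counts in other settings are to be read against the shares there: 8.74% higher and 59.9% lower at the same FPKM total, 8.33% and 8.8% with WT counted as 1 sample, and 33.5% and 23.7% with the GC and length correction. Of 12 further tubulin genes, 7 were tested, of which 3 were higher and 1 lower, with a median log2 fold change of 0.25. *Tubb4b*, a broadly expressed beta-tubulin, had 158, 156 and 153 FPKM in WT and 272, 213 and 269 in cKO (log2 fold change 0.68, limma adjusted p = 0.00171). It was not called with quantile normalization (0.18, limma adjusted p = 0.0568). Of its windows, 28.8% also occurred in another gene's transcript, most of them in the pseudogene *Tubb4b-ps1*. *Tubd1*, the delta-tubulin of centrioles, rose by 0.52, and *Tubb4a*, a beta-tubulin of the nervous system, had a log2 fold change of -0.72. *Tubb4b*, *Tubb2b* and *Tubd1* were no longer called at the same FPKM total, where the log2 fold change of *Tubb2b* was -0.083, nor with WT counted as 1 sample. None of the 7 was then called higher, with 3 lower in the first setting and 1 in the second.

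The relatives of stathmin were all but absent. *Stmn2*, *Stmn3* and *Stmn4*, the neuronal stathmins, stood below 0.1 FPKM or at 0 in every library, so that *Stmn1* supplied nearly all stathmin mRNA. Of the 10 tested genes among other stathmins, depolymerising kinesins and severing enzymes, 5 were higher and none lower by limma, where 1 gene, *Kif2a*, was lower at an unadjusted p under 0.05 (log2 fold change -0.35, adjusted p = 0.0591). *Fignl1*, an ATPase of the fidgetin family, rose by 1.19, *Kif2c*, the centromere kinesin that removes tubulin from microtubule ends, by 1.10, *Kif18a*, which shortens kinetochore microtubules, by 0.94 and *Kif18b* by 0.54. At the same FPKM total 3 of the 10 were higher and 4 lower, and with WT counted as 1 sample 3 were higher and none lower by limma. *Kif18b* was called in neither setting (log2 fold change 0.0078 in the first, adjusted p = 0.059 in the second).

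Tubulin is folded by a relay of chaperones. Of 13 tested cofactors and prefoldin subunits, 9 were higher and 1 lower, with a median log2 fold change of 0.65. The prefoldin subunits *Pfdn1* (1.01) and *Pfdn5* (0.90) hand nascent tubulin to the chaperonin, and the cofactors *Tbcb* (1.00) and *Tbca* (0.86) receive alpha- and beta-tubulin from it. *Tbcel*, a relative of the cofactor that takes dimers apart, had a log2 fold change of -0.34. With WT counted as 1 sample, 2 of the 13 were called higher (8.33% of all genes) and none lower, and *Tbcb*, *Pfdn5*, *Tbca* and *Tbcel* lost their calls. At the same FPKM total 4 were higher and 2 lower, against 8.74% and 59.9% of all genes. *Tbca* was not called there (0.30) or with quantile normalization (0.32), and its sign turned with the GC and length correction (-0.20, limma adjusted p = 0.298). With quantile normalization 6 of the 13 were higher and 1 lower (33.6% and 29.4% of all genes), with a median log2 fold change of 0.33. The GC and length correction gave 7 and 2 (33.5% and 23.7% of all genes), with a median of 0.21.

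Of the 17 genes of the gamma-tubulin ring complex and of augmin, which recruits it to existing microtubules, 11 were higher and 1 lower, although *Tubg1* itself was not called. The augmin subunits *Haus7* (1.06) and *Haus1* (0.90), the centrosomal activator *Cdk5rap2* (0.84) and the small subunit *Mzt2* (0.80) had the largest log2 fold changes. *Tubgcp6*, a large subunit of the ring, had one of -0.64, which the GC and length correction left at -0.11 (limma adjusted p = 0.343). With that correction 12 of the 17 were higher and 1 lower, against 33.5% and 23.7% of all genes. At the same FPKM total, 3 of the 17 were higher and 6 lower, against 8.74% and 59.9% of all genes, and *Cdk5rap2* was not called. With WT counted as 1 sample 5 were higher and none lower by limma, and *Haus7*, *Cdk5rap2* and *Tubgcp6* were not called.

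Of 17 tested stabilising and plus-end proteins, 7 were higher and 7 lower, a split that became 4 and 10 at the same FPKM total and 8 and 4 with the GC and length correction. The largest rises were those of *Tpx2* (1.21) and *Ckap2* (0.91), which act in spindle assembly, *Prc1* (1.00), which bundles the spindle midzone, and *Ckap5* (0.98), which promotes microtubule growth. *Numa1*, which encodes a protein of the spindle poles, was lower (-0.56, limma adjusted p = 0.00239), with a turned sign after the GC and length correction (0.073). Those with the largest fall were *Map7d1* (-1.10), *Map1s* (-1.08), *Tacc2* (-0.83) and *Map4* (-0.70), of which *Map4* and *Map1s* encode microtubule-associated proteins of non-neuronal cells. *Map4* had 55.0, 55.7 and 56.0 FPKM in WT and 34.4, 34.6 and 32.6 in cKO, with no overlap.

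Of 12 tested tubulin-modifying enzymes, 1 was higher and 5 were lower, with a median log2 fold change of -0.10. *Ttll3*, which adds glycine to tubulin, had -1.24, *Atat1*, the acetyltransferase of alpha-tubulin, -0.91, *Ttll4*, a glutamylase, -0.69, and *Agbl5*, which removes glutamate, -0.58. *Ttll1*, a subunit of the polyglutamylase complex, rose by 0.77. The split was 0 higher and 8 lower at the same FPKM total (8.74% and 59.9% of all genes), 0 and 1 with WT counted as 1 sample (8.33% and 8.8%) and 4 and 4 with the GC and length correction (33.5% and 23.7%). With WT counted as 1 sample, *Atat1* was the gene still called.

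Of the 10 factors of tubulin mRNA autoregulation, 5 were higher and 4 lower. *Ttc5*, whose product recognises the nascent peptide encoded by the capital letters shown above, had 41.9, 39.4 and 40.2 FPKM in WT and 20.1, 37.3 and 26.7 in cKO. All cKO libraries lay below the WT libraries, but cKO replicate 2 only slightly, and the log2 fold change was -0.56 (SE 0.19, limma adjusted p = 0.0359). *Cnot3*, a regulatory subunit of CCR4-NOT, had the clearest fall, from 38.5, 38.3 and 37.97 FPKM to 15.0, 15.7 and 13.0 (log2 fold change -1.34, still called with WT counted as 1 sample at an adjusted p of 0.0293). The subunits *Cnot11* (-0.41) and *Cnot7* (-0.38) were lower too, and *Cnot2* (0.49), *Cnot10* (0.33), *Cnot1* (0.33) and *Cnot8* (0.32) higher. At the same FPKM total these 4 turned negative (-0.065, -0.22, -0.22 and -0.24) and none was called, while 5 of the 10 factors were lower. With WT counted as 1 sample *Cnot3* alone was called, and *Ttc5* was not (limma adjusted p = 0.223). Whether these levels bear on those of the tubulin mRNAs was not tested.

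**Figure D4:**
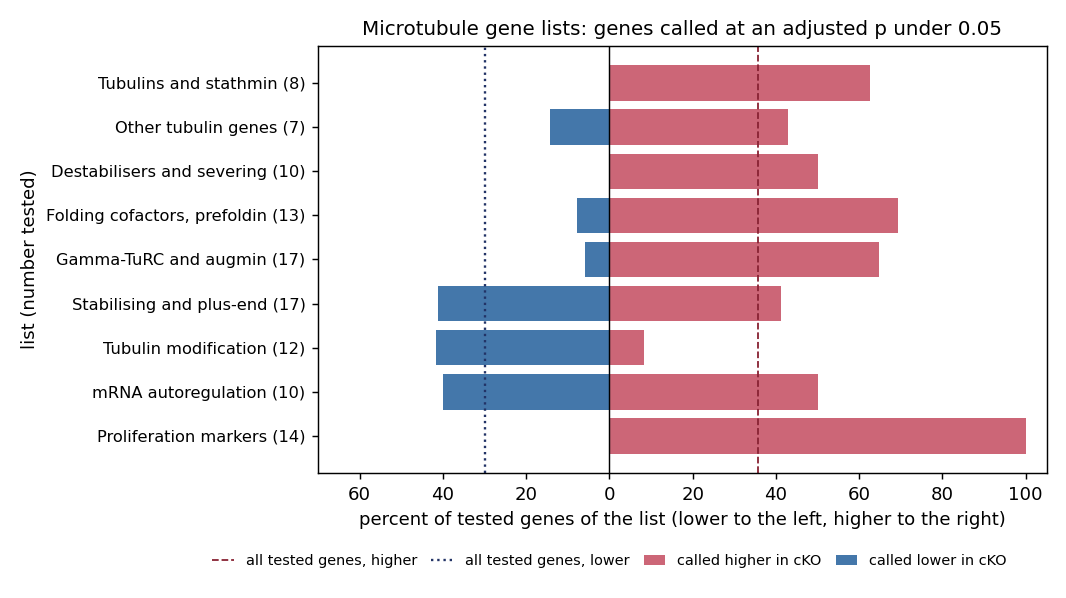
Percent of the tested genes of each list called higher (right) or lower (left) in cKO by limma at an adjusted p under 0.05, with the number tested in brackets and dashed and dotted lines at the shares among all tested genes (35.8% higher, 29.8% lower). All 14 proliferation markers lie on the right, and tubulin-modifying enzymes have 1 gene on the right and 5 on the left.

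Proliferation markers moved with the 5 genes that rose. All 14 were called higher, with a median log2 fold change of 1.06, and 11 of them were still called higher with WT counted as 1 sample. At the same FPKM total 11 were higher and 2 lower, the latter being the mitotic kinases *Aurkb* (-0.28, limma adjusted p = 0.0113) and *Plk1* (-0.24, adjusted p = 0.0351). *Ccnb1*, the cyclin of mitotic entry, had 39.4, 37.7 and 38.6 FPKM in WT and 96.9, 92.5 and 104 in cKO (log2 fold change 1.32). *Mcm5* (1.28) and *Pcna* (1.13), of the replication machinery, and *Birc5* (1.23), of the chromosomal passenger complex, followed. The part of these transcripts in the levels of the tubulin genes and *Stmn1* was not tested.

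Markers of other cells also differed between the groups. Summed over their lists, the 8 DP markers stood at 5416 to 5495 FPKM in WT and 7164 to 9390 in cKO, the 6 markers of double negative thymocytes at 25.5 to 27.2 and 11.7 to 13.9, and the 7 erythroid markers at 2.13 to 3.04 and 15.4 to 31.9. The 8 markers of mature single positive thymocytes had sums of 306 to 312 in WT and 246 to 379 in cKO. By limma, 6 of these 8 were called lower and 1 higher, against 29.8% and 35.8% of all genes. Of the DP markers 6 were called higher and 1 lower, of the double negative markers 0 and 4, and of the erythroid markers 3 and 0. B cell markers summed to 23.2 to 24.7 and 27.2 to 39.9, nearly all from *Cd79b*. Macrophage and dendritic cell markers overlapped (6.86 to 9.24 and 6.33 to 8.096), and of the 9 stromal markers, with sums of 47.4 to 49.0 and 53.4 to 57.4 mostly from *Pecam1*, *Foxn1* and *Krt5* were at 0 throughout. The part of such cells in the tubulin values was not tested.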

How the data were processed

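Processed values of mRNA-seq of sorted DP thymocytes were analysed, with 3 WT and 3 cKO libraries grouped by their sample labels. The authors prepared poly(A)-enriched libraries with a directional kit, sequenced read pairs, trimmed them, mapped them to mm10 with TopHat and deposited FPKM values per gene symbol made with Cufflinks; tool versions, annotation and strand setting are not given in the sources used here. The authors' own test modelled read counts, which FPKM values are not, so that log2(FPKM + 1) of genes reaching 1 FPKM in 3 or more libraries was fitted with limma 3.58.1 (R 4.3.3; lmFit, eBayes with trend) after median-of-ratios size factors of 1.002 to 1.015, with Benjamini-Hochberg adjustment over 10326 genes. The fit was tested on simulated data.

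Depth was estimated from the FPKM step of 1 fragment at 2611 single-transcript genes with an assumed fragment length of 200 bases. At these steps 69.7% to 76.9% of values were whole within 0.1, too few to recover reads for a count test. Positions, transcripts and coding sequences came from GENCODE vM21 (GRCm38, the assembly of mm10) and promoters from RefSeq. GC content and length were corrected with splines of 5 degrees of freedom. Python 3.11.15 with scipy 1.17.1 gave the permutation tests.

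The genes and lists were chosen with earlier results of these data known. The named genes were the 9 genes, the targeted gene, up to 4 genes called higher and 4 called lower per list with the largest log2 fold change, and the 3 genes most like each of the 2 most abundant members; *Tubb2b* (with its sum), *Cct5* values, *Kif2a*, *Numa1*, *Aurkb*, *Plk1*, the marker genes, *Xist* and *Ddx3y* were added as context. Some marker genes and sequences are not reported here.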

Additional observations from a re-analysis of the deposited data

How the results depend on the processing

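The count of 5 genes called higher became 2 at the same FPKM total, 3 with quantile normalization and 2 with WT counted as 1 sample; the count of 0 called lower became 1 without the filter (*Tubb6*), 3 at the same FPKM total and 1 with quantile normalization (*Tubb2a*, -0.45). Without the filter, 21.5% of all genes were called higher and 22% lower. With the GC content and length correction the count of genes called higher stayed at 5, but *Tubg1* (0.33, limma adjusted p = 0.0483) took the place of *Stmn1*. In the pathway lists 74 of 100 tested genes were called (65.5% of all genes), and 33 with WT counted as 1 sample (17.1% of all genes). Signs turned for *Stmn1* at the same FPKM total (-0.018) and with quantile normalization (-0.15), for *Tubg1* at the same FPKM total (-0.45) and without cKO replicate 1 (-0.039), for *Tuba4a* with the GC content and length correction (0.079) and without cKO replicate 2 (0.044), and for *Tubb2a* with that correction (0.023) and without cKO replicate 3 (0.0018). The cause was not tested, except that a same-total scaling lowers all genes of the libraries with the larger totals. Over the fits that leave out 1 library each, the log2 fold change ran from -0.069 to 0.044 for *Tuba4a*, from -0.021 to 0.0018 for *Tubb2a* and from -0.039 to 0.23 for *Tubg1*. These fits kept 5 genes higher and 0 lower, and between 67 and 88 list genes called. Among all genes they called 29.9% to 40% higher and 24.2% to 34.1% lower.

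With a replicate block, 5 genes were again called higher and 0 lower, and 74 list genes. Among all genes, 34% were then called higher and 28.6% lower. *Stmn1* had a limma adjusted p of 0.0159 with the block. The numbers do not pair the libraries: deviations of same-numbered libraries correlated at -0.0223, 0.0385 and 0.0309, and not every library correlated best with its own number. The beta to alpha ratio and the *Tuba1b* share kept their direction in all 9 alternatives each. Their groups did not overlap, so leaving out a library, averaging WT or blocking by replicate number could not turn it. With all tubulin genes of the class, which could have, the cKO minus WT differences were -0.24 (log2) and 6.05 percentage points. Neither measure was taken after quantile normalization or the GC content and length correction. Among all genes, the counts of 3693 higher and 3073 lower became 902 and 6181 at the same FPKM total, and 860 and 909 with WT counted as 1 sample. Depth limits *Tubb6* most, at 4 to 21 fragments.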
